A study of Homo sapiens with 6 samples.

Results

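Reads from 10 genes of the hnRNP family were examined: HNRNPA1, HNRNPA2B1, HNRNPA3, HNRNPC, HNRNPF, HNRNPH1, HNRNPK, HNRNPL, HNRNPM and HNRNPU. They were chosen by name out of 20176 protein-coding genes of the annotation, and each site lying in a gene's span on the gene's own strand was assigned to it. The data come from PAR-CLIP, in which cells take up the nucleoside analog 4SU, long-wave UV light links it to the protein it touches, and each link shows up after sequencing as a T-to-C change. HEK293, an established line of human embryonic kidney origin, was the source of all 6 libraries, and per the methods all cells were fed 4SU and carried a doxycycline-inducible transgene. The group called GFP was 3 libraries, named G20, G35 and G45, from an anti-FLAG immunoprecipitation of GFP carrying a FLAG tag, a fluorescent jellyfish protein with no known role in RNA binding. These are gel slices at about 20, 35 and 45 kDa and serve as measured background. They are positions in a gel and not repeat cultures, so the spread among them includes the position. The HuR group was 2 replicates of an immunoprecipitation of tagged HuR, and Total was 1 library of RNA fragments made without immunoprecipitation. All 6 libraries, Total included, came from material irradiated with the long-wave UV light. Per the paper, the RNA of Total was depleted of rRNA and then partly digested with RNase T1.

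The hnRNPs are abundant, mainly nuclear proteins that coat newly made transcripts and take part in splicing, in export and in 3′ end choice. HuR, encoded by ELAVL1, is an RNA-binding protein of the ELAV family known for binding U-rich and AU-rich elements in introns and 3′UTRs and for stabilizing mRNAs. Several hnRNP genes are known to carry highly conserved introns, 3′UTRs and alternative exons through which their own protein level is adjusted.

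The members held 724 sites in G20, 246 in G35, 287 in G45, 1817 in HuR replicate 1, 2484 in HuR replicate 2 and 1854 in Total, where a site is an interval with at least 1 uniquely mapping read. To show what such sites look like, for each gene the site with the most HuR reads is given among those with reads in both HuR replicates and in no slice. A window of 30 bases is printed, 5′ to 3′ on the gene's strand, and runs of 3 or more T are in capitals. Where the site allows, it is centered on the largest HuR replicate 2 cluster there, a stricter interval that needs converted positions. Coordinates are of the hg19 build, which is GRCh37.
HNRNPA1 3′UTR, chr12:54680269-54680298, plus strand: aaTTTTTgcccTTTTaTTTatcttccTTTg
HNRNPA2B1 3′UTR, chr7:26230857-26230886, minus strand: accctgTTTTccaatctgtcaTTTacttaa
HNRNPA3 3′UTR, chr2:178088028-178088057, plus strand: tctagTTTaTTTcTTTTTatgaaataaaat
HNRNPC intron, chr14:21721845-21721874, minus strand: tagcggccactaatacttaaTTTctagTTT
HNRNPF intron, chr10:43897602-43897631, minus strand: ttcattactaacTTTTaaaTTTaaaactca
HNRNPH1 intron, chr5:179047661-179047690, minus strand: cctataTTTagtattatagttcagagtaga
HNRNPK intron, chr9:86590969-86590998, minus strand: tggtgtgggaaTTTTTgTTTTgtcTTTTat
HNRNPL intron, chr19:39337706-39337735, minus strand: gtcagtgttctcTTTTTcagacagagcaag
HNRNPM intron, chr19:8540969-8540998, plus strand: caggattcagagcctggggtacgcggtggc
HNRNPU downstream region, chr1:245006555-245006584, minus strand: actacaacttaaacTTTaTTTacttgattg
The windows of HNRNPA1 and HNRNPK were 60.0% T, and that of HNRNPM was 16.7% T and held no run of 3 T. The other windows lay between 33.3% and 53.3% T.

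The site with the most GFP reads, the slices taken by their mean RPM, is shown for each gene in the same format. Here the window is the middle of the site, or the whole site where it is shorter than the window. It was not centered on a cluster, so the T shares of the 2 sets of windows are not like for like.
HNRNPA1 3′UTR, chr12:54679735-54679764, plus strand: caggtggaaccctaactattgagggagTTT
HNRNPA2B1 coding, chr7:26233240-26233269, minus strand: gatatggtggtggaggacctggatatggca
HNRNPH1 coding (3′UTR in the canonical transcript), chr5:179041928-179041957, minus strand: accaaggagcagtgaacagcagctactaca
HNRNPL coding, chr19:39340433-39340462, minus strand: ggcggcggcagtgagggcggccgggcccct
HNRNPU coding, chr1:245027293-245027322, minus strand: ctccgctctggacggcgaccagatggagct
HNRNPK 3′UTR, chr9:86584224-86584253, minus strand: aactgaaggagtcctgcatcTTTTTTTTTT
HNRNPA3 3′UTR, chr2:178085189-178085210, plus strand: ttacTTTaaattcTTTTTTTTg
HNRNPC 3′UTR, chr14:21678266-21678295, minus strand: tgttcTTTTaattactaTTTatagccccag
HNRNPF 3′UTR, chr10:43882005-43882034, minus strand: aagcaattaagagcagttataatagaggaa
HNRNPM intron, chr19:8510819-8510837, plus strand: TTTcgagtcctgcttgggg
The windows counted as coding were 23.3%, 10%, 6.67% and 16.7% T in the order printed and had no run of 3 T. The 3′UTR windows ran from 20% T in HNRNPF, with no run, through 26.7% in HNRNPA1 and 46.7% in HNRNPK and HNRNPC to 68.2% in HNRNPA3, and the HNRNPM site was 36.8% T.

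The libraries held between 6187300 (G35) and 38644636 (G20) reads at sites, and 28.1% (Total) to 68.4% (HuR replicate 2) of these lay in protein-coding genes. In G20, 17904624 of 20760416 protein-coding reads fell on 10 sites. Levels are given below as RPM, the usual per-million scaling, here relative to each library's reads in protein-coding genes, and 3 reads correspond to between 0.137 RPM in HuR replicate 2 and 1.26 RPM in G35. Read counts of single sites below are not scaled to depth. ELAVL1, the gene of the tagged protein, had 21.3, 55.0 and 80.2 RPM in the slices, 95.7 and 146 RPM in the HuR replicates and 165 RPM in Total, and its transgene reads cannot be told apart from endogenous ones. VIM, known to be expressed in the line, had 16.9 to 249 RPM. Other genes reported for the line or for cultured epithelial cells ran from 0 RPM, in G45 and HuR replicate 2, to 64.8 RPM in Total. These genes therefore did not lie above those of other cell types throughout. Markers of blood, liver and astrocytes (PTPRC, CD3E, ALB, GFAP) were not absent and reached 47.4 RPM, for PTPRC in the introns in G35. In the reads of RNA taken from whole cultures, more binding and more RNA cannot be told apart.

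Both HuR replicates had more RPM than all 3 slices in 8 of 10 members, where 62.8% of the 6928 genes with at least 20 reads in each of these libraries did, and no member was below all slices (background 1.66%). The exceptions were HNRNPH1 and HNRNPK. The count depended on the scaling, in alternatives chosen after seeing the data. With each library's full total as the base it was 9 members (69.6% of genes). With the 10 sites with the most reads of each library left out of the scaling it was 4 members, HNRNPA1, HNRNPA3, HNRNPC and HNRNPM (46.5% of genes), and with the trimmed mean of M-values used in the tests below it was HNRNPC alone (32.1% of genes). Among the members HNRNPC is thus the one above all slices under each of these scalings.

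**Figure D1:**
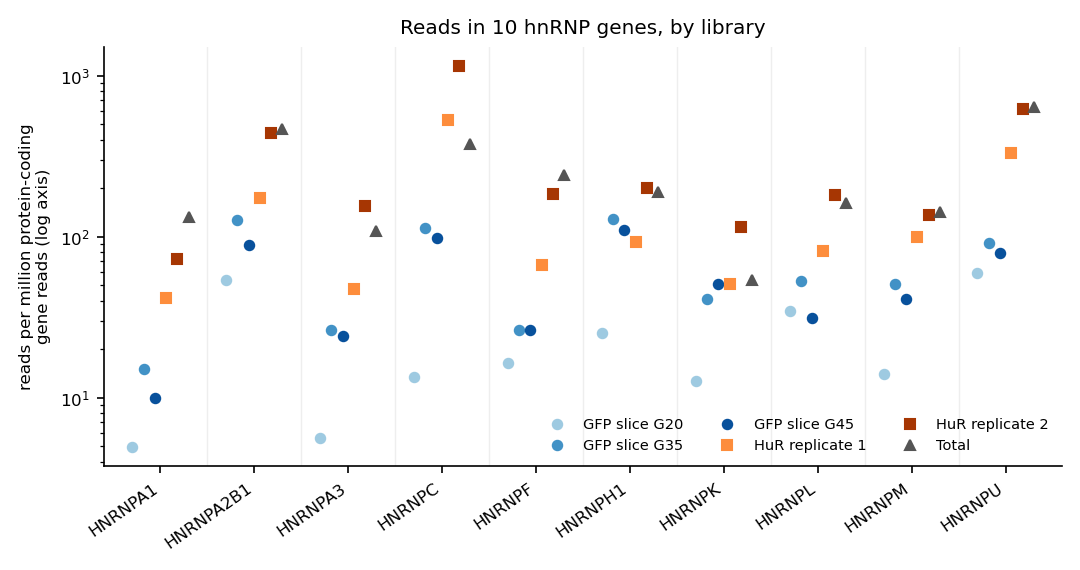
RPM relative to protein-coding gene reads (vertical axis, log scale) of the 10 hnRNP genes in each library, with 3 GFP slices, 2 HuR replicates and Total as separate points. HNRNPC reached 530 and 1145 RPM in the HuR replicates against 13.5 to 113 RPM in the slices, and HNRNPH1 and HNRNPK had a HuR replicate within the range of the slices.

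HNRNPA1, HNRNPA2B1 and HNRNPA3 encode the A and B type proteins, which carry a pair of RNA recognition motifs and a glycine-rich tail. HNRNPA1 (chr12:54673977-54680872, plus strand) had 4.91, 15.1 and 9.98 RPM in G20, G35 and G45, 41.3 and 73.0 RPM in HuR replicates 1 and 2, and 131 RPM in Total. The groups did not overlap, and Total was above every other library. Its reads lay mostly in the 3′UTR in every library, from 69.6% in G20 to 93.0% in Total. Coding sequence took 26.5%, 0% and 25.0% in the slices and 5.75% and 3.87% in the HuR replicates, so a slice, G35, was below both replicates. The slices rest on 102, 36 and 28 reads. The site with the most HuR reads, chr12:54680117-54680187 in the 3′UTR, had 9 and 341 reads in the HuR replicates, 1 read in the slices together and 87 in Total.

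HNRNPA2B1 (chr7:26210771-26241149, minus strand) had 53.5, 127 and 89.1 RPM in the slices, 173 and 442 RPM in the HuR replicates and 466 RPM in Total. HuR replicate 2 and Total were close, and the slices were lowest. The difference between the groups was clearest in the coding sequence, which held 74.1%, 63.6% and 59.6% of the slice reads but 9.60% and 5.93% of the HuR reads. Total, at 52.6%, was nearer to the slices. Reads outside the exons of protein-coding transcripts made up 10.7%, 12.6% and 28.0% in the slices and 63.1% and 53.8% in the HuR replicates. Of these HuR reads, 22.0% and 32.7% lay downstream of the canonical transcript, within the span of longer annotated transcripts, and are counted here as intron. Exons of other annotated transcripts held 58.5% and 55.7% of the HuR intron reads and 58.8%, 52.6% and 55.7% of the slice ones. The site with the most slice reads, in coding sequence at chr7:26233195-26233314, had 179, 50 and 19 reads in the slices and 7 and 93 in the HuR replicates. Scaled, these were 8.62, 21.0 and 6.77 RPM against 1.66 and 4.24 RPM, so every slice was above both replicates. The 3′UTR site with the most HuR reads, chr7:26231468-26231557, had 10 and 789 HuR reads, 16, 4 and 5 slice reads and 322 reads in Total.

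HNRNPA3 (chr2:178077422-178088687, plus strand) had 5.59, 26.4 and 24.2 RPM in the slices, 47.3 and 154 RPM in the HuR replicates and 109 RPM in Total. As in HNRNPA1, the 3′UTR held most reads in every library, from 65.5% in G20 to 85.3% in G45, and the groups overlapped in this share. One 3′UTR stretch, chr2:178085141-178085217, which contains the T run printed above, had 40 and 1602 HuR reads out of 199 and 3387 in the gene. The same stretch had 33, 40 and 50 reads in the slices, where the gene had 116, 63 and 68. Its RPM was 1.59, 16.8 and 17.8 in the slices and 9.50 and 73.0 in the HuR replicates. It was therefore the leading site of the gene in background and in HuR alike.

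HNRNPC (chr14:21677295-21737653, minus strand) encodes the C proteins, which bind U tracts of nascent transcripts. It had the most HuR RPM of the members, with 530 and 1145 RPM in the HuR replicates against 13.5, 113 and 98.1 RPM in the slices and 377 RPM in Total. The HuR replicates were above all other libraries. Introns held 75.8% and 76.5% of its HuR reads, 56.4%, 70.0% and 56.0% of its slice reads and 51.7% of its Total reads, and the HuR replicates did not overlap with the slices. Coding sequence took 0.135% and 0.0995% of HuR reads, compared to 29.6%, 8.15% and 1.45% in the slices and 26.5% in Total. The 5′UTR took 18.9% and 15.5% of HuR reads and 8.21%, 17.0% and 14.2% of slice reads, an overlap of the groups. This share depended on the transcripts used. By the canonical transcript alone, a choice made after seeing the data, it was 0% and 2.43% in HuR and 2.14%, 0% and 0% in the slices. Introns then held 94.8% and 89.6% of HuR reads and 68.6%, 88.5% and 70.2% of slice reads. The HuR reads were spread over many sites: 423 merged sites had reads in both HuR replicates, and 310 of these had none in any slice. By the mean over replicates, the leading site was an intron site near the gene start, chr14:21737062-21737119, but it rested on replicate 1. That site had 193 reads in replicate 1 with 1.04 conversion events per 100 reads, and 12 reads in replicate 2 with 66.7 events per 100 reads. The 3′UTR site with the most slice reads, chr14:21678256-21678304, had 6, 6 and 67 reads in the slices and 15 and 482 in the HuR replicates. By RPM G45 was highest there, with 0.289, 2.52 and 23.9 in the slices against 3.56 and 22.0 in HuR.

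**Figure D2:**
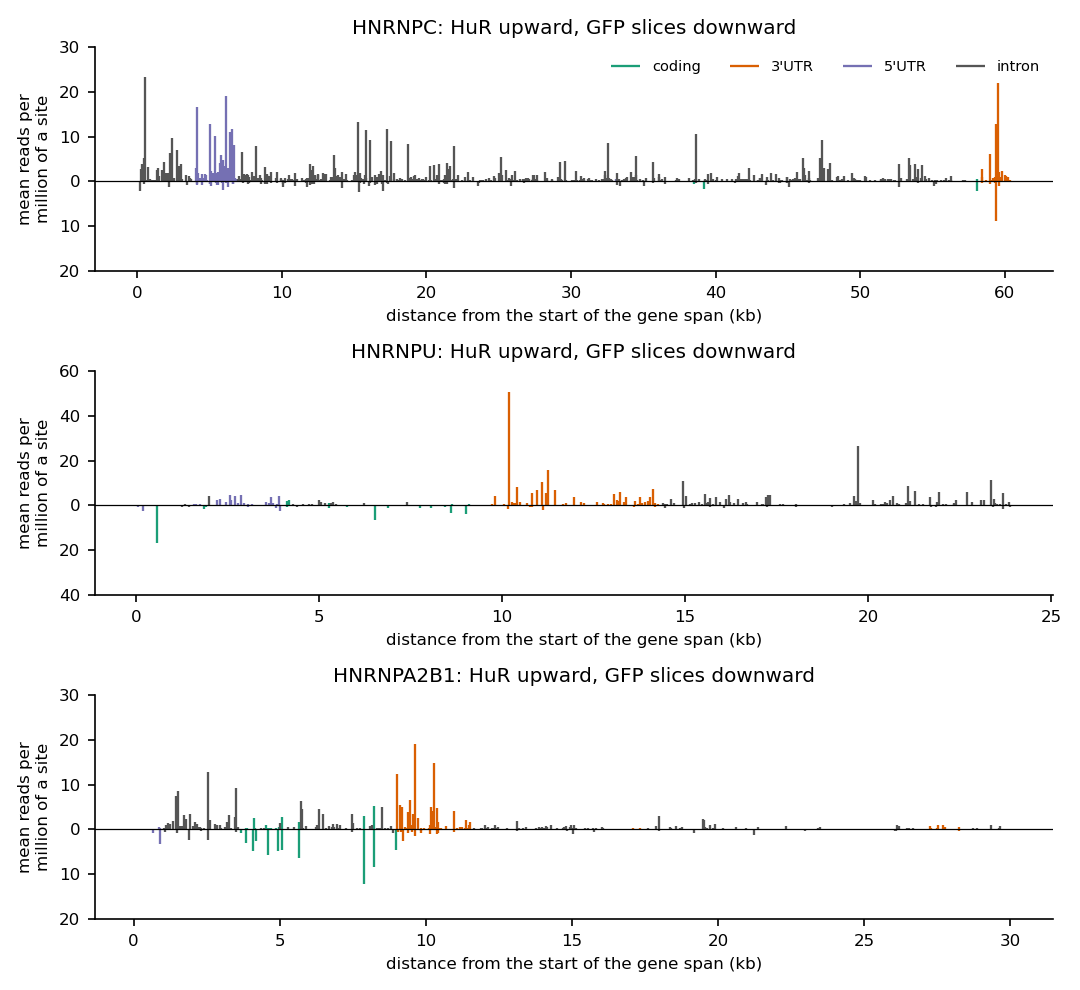
Mean RPM of merged sites (vertical axes) along HNRNPC, HNRNPU and HNRNPA2B1 against the distance from the gene start in kb (horizontal axes), with HuR drawn apart from the GFP slices. HuR sites run along the whole of HNRNPC, while in HNRNPU the site with the most slice reads lies 555 bases from the gene start and the site with the most HuR reads lies 10181 bases from it.

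HNRNPF and HNRNPH1 encode closely related proteins that bind G-rich elements. HNRNPF (chr10:43881065-43904634, minus strand) had 16.3, 26.4 and 26.4 RPM in the slices, 66.5 and 183 RPM in the HuR replicates and 240 RPM in Total. The coding share was 40.8%, 19.0% and 25.7% in the slices and 3.93% and 2.04% in the HuR replicates, without overlap. The HuR replicates differed from each other in where the rest of the reads lay. Introns held 64.3% in replicate 1 and 32.5% in replicate 2, and the 3′UTR held 29.3% and 64.6%. A 3′UTR site, chr10:43881482-43881509, had 1155 reads in replicate 2 and 2 in replicate 1, with 9 in G20, none in G35 and G45 and 185 in Total.

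HNRNPH1 (chr5:179041179-179061785, minus strand) had 25.0, 129 and 110 RPM in the slices, 92.7 and 200 RPM in the HuR replicates and 188 RPM in Total. HuR replicate 1 lay within the range of the slices. Coding sequence held 77.3%, 66.9% and 74.8% of slice reads, 16.4% and 25.8% of HuR reads and 10.4% of Total reads. These shares depended on the transcripts used. By the canonical transcript alone, a choice made after seeing the data, coding sequence held 38.3%, 23.1% and 16.2% of slice reads, 8.21% and 7.30% of HuR reads and 7.49% of Total reads, and the 3′UTR held 41.2%, 46.4% and 64.1% of slice reads against 17.9% and 36.7% of HuR reads. A single stretch, chr5:179041921-179041963, which is coding in some transcripts and 3′UTR in the canonical one, held 177, 118 and 180 of the 402, 206 and 231 coding reads in the slices. That stretch had 32 and 811 reads in the HuR replicates and 55 in Total. Intron shares were 16.5%, 21.4% and 18.4% in the slices and 70.3% and 54.8% in the HuR replicates. Of the HuR intron reads, 60.2% and 79.9% lay in exons of annotated transcripts that are not protein-coding, such as those with a retained intron.

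HNRNPK (chr9:86582998-86595546, minus strand) encodes a KH domain protein that binds C-rich RNA. The gene had 12.6, 41.1 and 51.0 RPM in the slices, 50.8 and 115 RPM in the HuR replicates and 54.1 RPM in Total, and HuR replicate 1 was just under G45. Its 3′UTR held 32.8%, 62.2% and 93.7% of slice reads, 36.4% and 53.2% of HuR reads and 31.7% of Total reads. The share in G45 came largely from the T run printed above, chr9:86584218-86584258, with 34, 45 and 115 reads in the slices and 20 and 832 in the HuR replicates. By RPM G45 was highest at this run, with 1.64, 18.9 and 41.0 in the slices against 4.75 and 37.9 in HuR. Introns held 6.49%, 15.3% and 4.90% in the slices and 59.3% and 42.6% in the HuR replicates, with no overlap. In Total its 5 annotated pseudogenes held 605 reads against 318 in the exons of the gene.

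HNRNPL (chr19:39327010-39342987, minus strand) encodes a protein known for binding CA repeats. Levels were 34.2, 53.3 and 31.0 RPM in the slices, 81.7 and 182 RPM in the HuR replicates and 161 RPM in Total. Coding sequence held 62.9%, 37.8% and 23.0% of slice reads and 7.27% and 6.01% of HuR reads. Its short 3′UTR went the other way, with 4.64%, 6.30% and 13.8% in the slices and 27.0% and 31.7% in the HuR replicates. Intron shares overlapped, at 32.5%, 55.9% and 63.2% in the slices and 65.7% and 62.3% in HuR. Of these intron reads, 61.0%, 38.0% and 50.9% in the slices and 46.9% and 57.1% in HuR lay in other transcripts' exons. The coding site with the most slice reads, chr19:39340339-39340555, had 202 reads in G20 but 11 and 9 in G35 and G45, and 0 and 15 in the HuR replicates. Scaled, these were 9.73, 4.61 and 3.21 RPM in the slices and 0 and 0.683 RPM in HuR. An intron site, chr19:39332776-39332939, had the most HuR reads, with 60 and 1140 against 11, 12 and 11 in the slices and 29 in Total.

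HNRNPM (chr19:8509651-8553998, plus strand) encodes a splicing regulator that binds GU-rich sequence. It had 14.1, 50.8 and 41.0 RPM in the slices, 98.8 and 136 RPM in the HuR replicates and 142 RPM in Total. Introns held 49.7%, 66.1% and 73.9% of slice reads, 95.9% and 93.7% of HuR reads and 59.6% of Total reads, the highest HuR intron shares among the members. The site with the most mean RPM in both groups, chr19:8510819-8510837 in an intron, had 17, 5 and 38 reads in the slices and 66 and 16 in the HuR replicates. It had none in Total, which allows up to 0.297 RPM there. Its HuR mean rested on replicate 1, with 15.7 RPM against 0.729 in replicate 2. The slice mean came largely from G45, with 13.5 RPM against 0.819 in G20 and 2.10 in G35.

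HNRNPU (chr1:245003940-245027862, minus strand) encodes a large protein of the nuclear matrix that binds RNA and DNA. It had 59.0, 91.0 and 79.2 RPM in the slices, 331 and 621 RPM in the HuR replicates and 638 RPM in Total. Coding sequence held 74.0%, 39.2% and 55.0% of slice reads against 1.29% and 3.13% of HuR reads and 28.3% in Total. The 3′UTR held 6.70%, 15.2% and 13.5% in the slices and 34.6% and 41.3% in the HuR replicates, and neither share overlapped between the groups. Reads outside protein-coding exons were 56.3% and 46.1% of HuR reads and 10.9%, 27.2% and 26.1% of slice reads. Of these HuR reads, 94.6% and 86.6% lay downstream of the canonical transcript and 99.4% and 99.5% lay in exons of other annotated transcripts, which can overlap introns of the HNRNPU mRNA. The coding stretch with the most slice reads, chr1:245027027-245027587, had 589, 18 and 41 reads in the slices, 3 and 67 in the HuR replicates and 457 in Total. Its RPM was 28.4, 7.55 and 14.6 in the slices, 0.713 and 3.05 in HuR and 45.3 in Total. The 3′UTR site chr1:245017627-245017735 had the most HuR reads, with 120 and 1600 against 6, 9 and 4 in the slices and 758 in Total. Scaled, HuR had 28.5 and 72.9 RPM there and the slices 0.289, 3.78 and 1.43 RPM. Total, at 75.1 RPM, was above both HuR replicates.

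Over the members together, HuR reads had a lower coding share and a higher intron share than background reads. Summed over the 10 genes, coding sequence held 46.5% ± 14.4 (SD, n = 3) of GFP reads and 3.64% ± 0.306 (SD, n = 2) of HuR reads, with 29.8% in Total (95% Wilson interval 29.2 to 30.4). Introns held 29.3% ± 8.06 of GFP reads and 61.8% ± 5.38 of HuR reads, with 31.3% in Total (30.7 to 31.9). Exons of other annotated transcripts held 32.6% and 31.3% of these HuR intron reads and 38.5%, 27.9% and 33.8% of the slice ones. Over all protein-coding genes introns held 96.1%, 84.0% and 87.4% of slice reads and 82.7% and 84.5% of HuR reads. Without each library's 10 largest sites these were 71.4%, 83.6% and 84.4% against 85.7% and 84.4%. HNRNPC held 25127 of 71365 member reads in HuR replicate 2 and 280 of 4955 in G20, so gene composition differed. The 3′UTR held 17.9% ± 7.52 of GFP reads and 26.4% ± 6.06 of HuR reads, and here the groups overlapped, with 32.9% in Total (32.4 to 33.5). By canonical transcripts the 3′UTR shares were 25.2% ± 11.4 for GFP and 25.8% ± 6.10 for HuR, so the gap in this share was gone, and the coding shares were 37.9% ± 17.8 and 2.76% ± 0.138. The 95% Wilson interval of a single gene's share in a slice was up to 30.7 percentage points wide, in G45, and in HuR replicate 2 at most 3.89 points wide. Permuting 2 against 3 libraries exactly cannot give a two-sided p below 0.2, so no test was made of these shares.

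Gene by gene, both HuR replicates had a lower coding share than every slice in 7 of 10 members, where 39.4% of the 6928 genes did. The members were HNRNPA2B1, HNRNPC, HNRNPF, HNRNPH1, HNRNPL, HNRNPM and HNRNPU, and none was above (background 2.42%). The intron share was above every slice in 6 members, HNRNPA2B1, HNRNPC, HNRNPH1, HNRNPK, HNRNPM and HNRNPU, against 37.0% of all genes, and below in none (5.15%). The 3′UTR share was above in 6 members as well, against 21.8% of all genes, and below in none (6.87%). These were HNRNPA1, HNRNPA2B1, HNRNPH1, HNRNPL, HNRNPM and HNRNPU. HNRNPM rested on few 3′UTR reads, 5 of 416 in HuR replicate 1 (1.20%) against 3 of 292 in G20 (1.03%). HuR replicate 2 had 93 of 2979 (3.12%), and G35 and G45 had 0. The Wilson intervals of HuR replicate 1 (0.514% to 2.78%) and G20 (0.350% to 2.98%) overlapped, so the place of HNRNPM in this count was not resolved. With regions taken from the canonical transcript alone, a choice made after seeing the data, the 3′UTR count was 4 members. HNRNPM was again among them, on the same few reads. HNRNPH1 turned to the opposite side, with both HuR replicates below every slice. The coding and intron counts stayed at 7 and 6. That choice has fewer exons, so it does not address intron reads that lie in exons of other annotated transcripts. In HNRNPU, 99.4% and 99.5% of HuR intron reads lay in such exons, and 61.7%, 96.6% and 98.3% of slice intron reads. Without those reads its intron share was not above every slice, so its place among the 6 rested on the transcripts used.

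**Figure D3:**
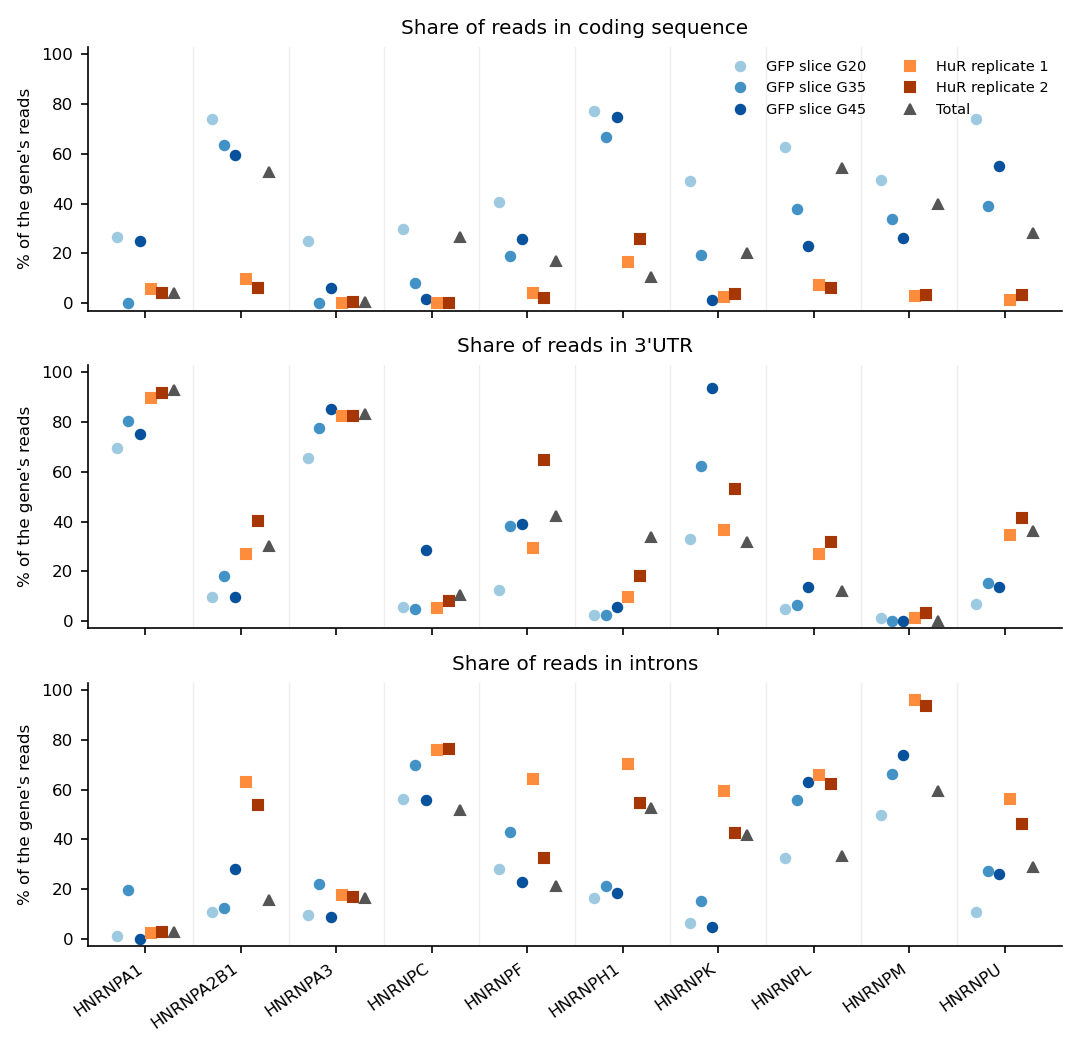
Share of each hnRNP gene's reads (percent) in coding sequence, 3′UTR and introns, with points for the 3 GFP slices, the 2 HuR replicates and Total. Coding shares of HuR stay at or below 25.8% in every gene, while slice shares reach 77.3% in HNRNPH1.

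Densities set the genes side by side on a common scale of RPM per kb of annotated sequence. In the 3′UTR, HNRNPL had the highest HuR density, 112 ± 70.8 RPM per kb (SD, n = 2), followed by HNRNPF at 67.4 ± 68.4, and HNRNPU at 39.1 ± 21.2. The lowest was HNRNPM, at 8.0 ± 6.36. Nearly all 3′UTR reads of the 2 leading genes lay at sites that overlap a slice site. The shares were 95.7% and 100% in the HuR replicates for HNRNPL and 93.9% and 97.6% for HNRNPF, with 72.3% and 76.8% for HNRNPU. The SDs are as large as the gaps between neighbors, so this order was not resolved. In reads counted as intron, HNRNPU had 16.8 ± 5.01 and HNRNPC 11.9 ± 6.23 RPM per kb in HuR, and HNRNPA1 had the lowest density, 1.94 ± 0.895. In coding sequence the slices were led by HNRNPA2B1 at 54.6 ± 19.7 and, with the stretch named above counted as coding, HNRNPH1 at 41.8 ± 25.0 RPM per kb (SD, n = 3), and the next was HNRNPU at 15.7 ± 1.76. HNRNPA3 had 0.747 ± 0.647 RPM per kb there.

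Processed pseudogenes repeat the exons of several members, and the deposited tables hold uniquely mapping reads only. Of all 30-base windows within coding exons, those occurring once in the genome made up 100% for HNRNPA2B1, 99.7% for HNRNPM, 98.7% for HNRNPF and 95.7% for HNRNPU. The values were 84.4% for HNRNPH1, 68.4% for HNRNPL, 28.1% for HNRNPC and HNRNPK, 27.5% for HNRNPA1 and 13.5% for HNRNPA3. HNRNPA1 has 74 annotated pseudogenes and HNRNPA3 has 16. Reads at the pseudogenes of HNRNPA3 came to 61.0%, 89.8% and 111% of the reads in its own exons in the slices, and to 8.54% and 2.77% in the HuR replicates. For HNRNPA1 these values were 29.7%, 44.8% and 89.3% in the slices and 8.82% and 9.73% in HuR. The ratio was thus higher in the slices than in HuR for both genes, and its part in their values was not tested. For HNRNPC, HNRNPK, HNRNPA1 and HNRNPA3 most coding windows could therefore give no counted read of that length in any library. The unique share depends on length: with 20-base windows it was 13.9% for HNRNPK coding exons. In the HNRNPH1 3′UTR it was 29.4% with 20 bases and 53.7% with 30. Over all protein-coding genes, median site lengths were 27, 22 and 21 bases in the slices and 23 and 24 in the HuR replicates. What this did to comparisons between libraries was not tested.

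Differences between HuR and GFP were tested with edgeR's quasi-likelihood test on summed reads over all genes, with Benjamini-Hochberg adjustment and trimmed-mean scaling, which sets the typical gene to about no difference and gave G20 a scaling factor of 0.210. No member passed an adjusted p of 0.05 for the whole gene, where 0.236% of 14407 genes were called higher and 2.16% lower in HuR. At an unadjusted p under 0.05, HNRNPC alone was higher (background 11.3%), and none was lower (15.0%). HNRNPC had the largest difference, a log2 fold change of 2.01 (SE 0.75, edgeR adjusted p = 0.115). The direction of this value held under every alternative tried. The estimates of the other 9 members were between −0.89 for HNRNPH1 and 0.78 for HNRNPA3, with SEs of 0.63 to 0.78, and the signs of HNRNPM, HNRNPL, HNRNPH1, HNRNPA2B1 and HNRNPK turned positive when libraries were scaled to their totals, which moved the median of all genes to 2.15. The median over the members was 0.15 on the log2 scale, compared to −0.06 over all genes.

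In coding sequence no member was called, with 0.0553% of 5428 genes higher and 0% lower, and none was past an unadjusted p under 0.05 (8.95% and 3.59% of genes). HNRNPA1 had the largest estimate there, 2.16 (SE 1.04, adjusted p = 0.411). In 3′UTRs the background was 0% in both directions among 4350 genes, and at an unadjusted p under 0.05 HNRNPU was the 1 member higher (5.63%, 245 genes) and none was lower (13.5%, 588 genes). HNRNPU had a log2 fold change of 1.83 in its 3′UTR (SE 0.62, adjusted p = 0.174), and HNRNPK had −1.59 (SE 0.71, adjusted p = 0.262), a value that turned positive when libraries were scaled to their totals. HNRNPM did not pass the filter on low counts there. For introns, 0.134% of 12674 genes were called higher and 2.89% lower, and again no member, while HNRNPC, HNRNPK and HNRNPU were higher at an unadjusted p under 0.05 (11.4% of genes) and none lower (14.7%). The intron estimates were 1.84 for HNRNPC (SE 0.61, adjusted p = 0.0985), 1.52 for HNRNPK (SE 0.68, adjusted p = 0.180), 1.45 for HNRNPU (SE 0.58, adjusted p = 0.144) and 1.15 for HNRNPA2B1 (SE 0.60, adjusted p = 0.242). With each site counted once in place of its reads, the intron estimates of HNRNPC, HNRNPU and HNRNPA2B1 turned to −0.15, −0.86 and −0.54, and the 3′UTR estimate of HNRNPU to −0.33. HNRNPA1, with few intron bases, did not pass the filter.

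The ratio of intron to exon reads was tested within libraries, so that depth and the level of the gene drop out. No gene was called in either direction among 14039 (0% and 0%), and at an unadjusted p under 0.05 it was higher in HuR in 14.9% and lower in 1.20%. Among the members, HNRNPK, HNRNPM, HNRNPH1 and HNRNPA2B1 were past that unadjusted level, all toward introns. HNRNPK had a log2 ratio of intron to exon reads of −3.51 in GFP and 0.05 in HuR, a shift of 3.57 (SE 1.24, edgeR adjusted p = 0.179). The shift was 3.40 for HNRNPM (SE 1.22, adjusted p = 0.187), 2.91 for HNRNPA2B1 (SE 1.28, adjusted p = 0.268) and 2.87 for HNRNPH1 (SE 1.21, adjusted p = 0.250). The estimate was positive in 9 of 10 members and in 76.4% of all genes, with medians of 1.56 and 1.46. The exception, HNRNPA1, had −0.80 (SE 1.81) on very few intron reads. HNRNPU had 2.05 (SE 1.30, adjusted p = 0.439), which became −2.51 when exons of all annotated transcripts counted as exons.

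**Figure D4:**
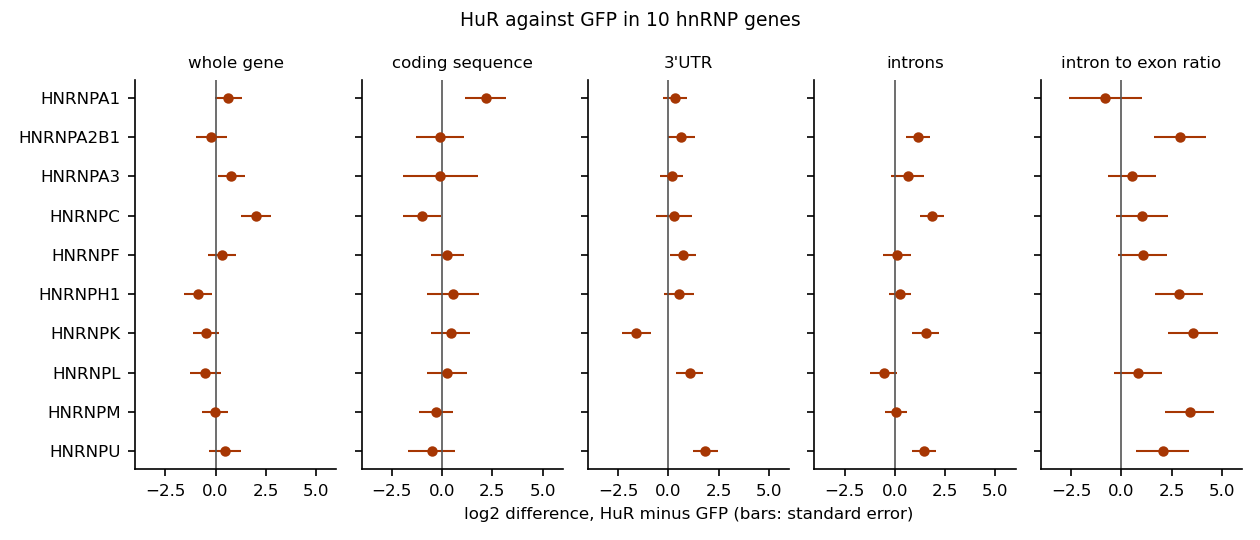
Log2 fold change of HuR over GFP (with its SE as bars) for each hnRNP gene in the edgeR fits of the whole gene, coding sequence, 3′UTR and introns and for the shift from exons to introns. HNRNPC lies highest for the whole gene at 2.01, and 9 of 10 shift values lie above 0.

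For the 20 other genes of the wider family, such as the PTB and PCBP proteins, none passed the whole-gene test either. Estimates ran from −1.66 for PTBP1 (SE 0.77, adjusted p = 0.181) and −1.24 for HNRNPAB (SE 0.73, adjusted p = 0.281) to 1.57 for PTBP3 (SE 0.63, adjusted p = 0.135) and 2.27 for PTBP2 (SE 0.73, adjusted p = 0.0839).

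Total is 1 library, so its comparison has no replicate check. In 8 of 10 members every slice was at least 2 times below Total, the same 8 that had more RPM in HuR than in the slices, and 57.3% of 15557 genes met this rule. None was 2 times above Total in every slice (2.60%). With each site counted once in place of its reads no member was 2 times below (1.06% of genes) and HNRNPH1 and HNRNPU were 2 times above (5.98%), so HNRNPU changed sides. When the 10 sites with the most reads of each library were left out of the scaling, a choice made after seeing the data, 4 members met it (HNRNPA1, HNRNPA3, HNRNPC and HNRNPF), against 30.4% of genes. No member was 2 times above Total in both HuR replicates (background 16.5%) or 2 times below in both (19.0%). HNRNPC came nearest to the first, at 530 and 1145 RPM against 377, and HNRNPA1 nearest to the second, at 41.3 and 73.0 against 131.

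T-to-C conversions were more frequent in HuR reads than in slice reads for nearly all members. Over the members there were 21.6, 66.2 and 47.6 conversion events per 100 reads in the slices, 92.9 and 102.9 in the HuR replicates and 20.0 in Total. The group means were 45.1 ± 22.4 (SD, n = 3) for GFP and 97.9 ± 7.06 (SD, n = 2) for HuR. Both HuR replicates were above all slices in 9 of 10 members, all but HNRNPA1, compared to 48.0% of the 6928 genes, and none was below (7.71%). For HNRNPA1 the slices had 46.1, 69.4 and 100 events per 100 reads, the last on 28 reads, and the HuR replicates had 95.4 and 111. HuR reads on coding sequence of the members were also converted, at 77.5 and 79.2 events per 100 reads, whereas over all protein-coding genes the coding values were 18.6 and 73.2. HNRNPH1 had the lowest value over a whole gene in replicate 2, 90.6, where its reads counted as coding had 56.6, and HNRNPC had the lowest in replicate 1, 87.8.

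A part of the HuR reads lay at sites that background also had. Among member sites of HuR, 28.5% and 28.1% overlapped a slice site by at least 1 base on the same strand (95% Wilson intervals 26.5 to 30.6 and 26.3 to 29.9), compared to 9.12% and 8.47% for sites of all protein-coding genes. These sites held 48.0% and 57.5% of the members' HuR reads, against 50.3% and 24.8% for all protein-coding genes. In coding sequence 91.3% and 91.9% of HuR reads were at such sites, compared to 86.3% and 62.5% over all protein-coding genes. The 3′UTR had 64.4% and 76.0%, compared to 49.7% and 49.6%. In introns the members had 39.1% and 42.9%, below the 46.2% of all genes in replicate 1 and above their 19.9% in replicate 2. HNRNPH1 had the highest shares, 67.9% and 77.3%, and HNRNPM had low ones, 34.4% and 23.3%. HNRNPK had 29.0% in replicate 1 and 52.7% in replicate 2, the latter with the T run in its 3′UTR. Counting only slice sites with at least 5 reads, the mean over both replicates was 25.5% of reads in place of 52.7%.

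**Figure D5:**
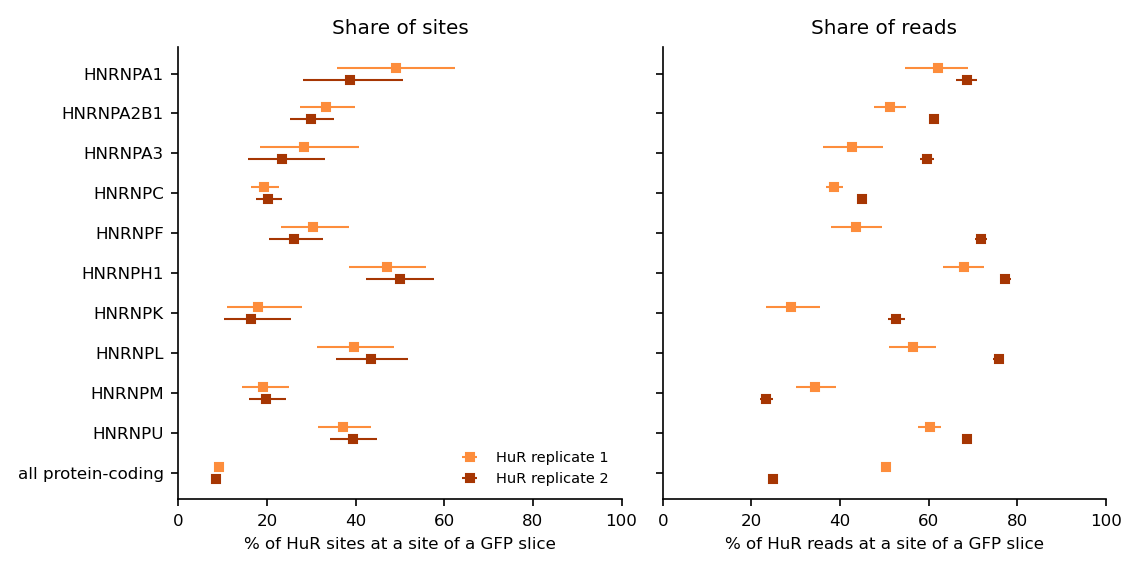
Share of HuR reads (percent) at sites that overlap a GFP slice site, for each hnRNP gene and both HuR replicates. HNRNPH1 has the highest shares at 67.9% and 77.3%, and HNRNPM the lowest share of replicate 2 at 23.3%.

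After merging overlapping HuR sites, the members had 2771, of which 1240 (44.7%) had reads in both HuR replicates. Of these, 795 (64.1%) had no read in any slice and 52 had reads in all 3. The part without background differed by region, at 5 of 58 in coding sequence, 89 of 184 in 3′UTRs and 670 of 931 in introns. Merged sites were not counted over all protein-coding genes, so whether these parts are particular to the members was not tested. HNRNPC contributed 310, HNRNPA2B1 98, HNRNPU 97 and HNRNPM 94 of the 795. HNRNPA1 had the fewest, 17 of 37. Seen from the background, the slices together had 949 merged sites in the members, 750 of them in a single slice and 66 in all 3, and 436 (45.9%) had reads in both HuR replicates.

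Base content was compared because HuR favors U-rich RNA. Member sites were 23.6%, 28.1% and 30.8% T in G20, G35 and G45, 33.7% and 33.8% T in the HuR replicates and 29.5% T in Total. HuR was above the slices, but over all protein-coding genes the HuR sites held more T, at 35.9% and 38.1%, and the slices had 22.0%, 30.2% and 32.8%. A run of 4 G (GGGG, searched on the site's strand only) was in 23.9%, 19.5% and 18.5% of member sites in the slices, in 9.30% and 10.99% in HuR and in 8.58% in Total. Over all protein-coding genes it was in 23.8%, 15.1% and 12.2% of slice sites and in 6.83% and 8.58% of HuR sites. The motif TTTTT was in 8.01%, 13.4% and 19.2% of slice sites and in 13.9% and 18.9% of HuR sites, so it did not separate the groups, compared to 4.94%, 12.6% and 16.2% and to 13.8% and 22.3% over all protein-coding genes. In the 3′UTRs of the members TTTTT was in 13.7%, 27.5% and 30.6% of slice sites and 17.1% and 21.3% of HuR sites. ATTTA, the core of AU-rich elements, was in 3.87%, 8.94% and 6.97% of slice sites and 7.54% and 8.09% of HuR sites, with overlap. Over all protein-coding genes ATTTA was in 2.36%, 4.95% and 6.04% of slice sites and 7.35% and 9.66% of HuR sites.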

How the data were processed

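Reads had been sequenced on an Illumina HiSeq, trimmed, and mapped by the authors with Bowtie (version not given in the sources used here) to hg19. Reads with a single best place in the genome and 0 to 2 T-to-C changes went into PARalyzer, which formed groups (intervals holding any read) and stricter clusters. For every site the deposited tables hold 3 counts (reads, converted positions and conversion events), none normalized by the authors. Reads carried no molecular identifiers, removal of PCR duplicates is not stated, and intervals and floors cover counting error only. Depth, at 6187300 to 38644636 reads per library, leaves the slices with as few as 28 reads in a member.

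Each site was assigned by its midpoint to genes of GENCODE 44 mapped to GRCh37, with coding sequence before 3′UTR, 5′UTR and intron, where intron means outside exons of protein-coding transcripts. All member site sequences matched GRCh37 at the stated positions. Summed counts were tested with edgeR 4.0.16 in R 4.3.3 (filterByExpr, TMM, glmQLFTest, Benjamini-Hochberg, adjusted p of 0.05), HuR (n = 2) against GFP (n = 3). The ratio of intron to exon reads was tested as an interaction with library as a block. The assignment, overlap, window search and fits were tested on simulated data. Overlaps needed 1 base on the same strand. Other work used Python 3.11.15 with numpy 2.4.6, pandas 2.3.3, scipy 1.17.1, statsmodels 0.14.6 and matplotlib 3.10.9.

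No label says that replicates are separate cultures, so p-values measure only the spread between these libraries. The members, gene lists and tests were chosen with earlier results of these data known. All 10 members were named, with 3 sites each (most HuR reads, most GFP reads, and most HuR reads in both replicates and no slice) and the 2 highest and 2 lowest of 20 other family genes. Alternatives changed scaling, filter, tool (DESeq2 1.42.0), sites, exons, overlap rule and replicates, and some were chosen after seeing the data, as stated beside them. The cluster tables were used only for the overlap alternative and to center the windows of HuR sites. Some genes of the lists are not reported here.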

Additional observations from a re-analysis of the deposited data

Results flagged for a closer look

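Reads on the strand opposite to the gene were not part of the comparisons, and 3 of 10 members had more of them, in RPM, in both HuR replicates than in every slice, with over 3 reads in each replicate. The same was true of 28.6% of the 6928 genes with at least 20 reads on their own strand in each of these libraries. HNRNPC had a mean of 4.30 RPM in HuR, from 3.33 and 5.29 RPM, against 0.0963, 2.94 and 0.357 RPM in G20, G35 and G45. HNRNPK had a mean of 1.98 RPM, from 3.33 and 0.638 RPM, each on 14 reads, against 0.193 RPM in G20 and no read in G35 and G45. HNRNPL had a mean of 0.862 RPM, from 0.95 and 0.775 RPM, on 4 and 17 reads, against 0.0482 RPM in G20 and no read in the other slices. A count of 0 allows up to 1.26 RPM in G35 and 1.07 RPM in G45, which is above the HNRNPL values and above replicate 2 of HNRNPK. All 3 values were far below the levels on the gene's own strand.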

How the results depend on the processing

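No paired analysis was possible because the GFP libraries are gel slices whose labels carry no replicate number, so they share none with the HuR replicates.

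Counts of called genes depended on the setting, and the cause was not tested. For the whole gene, 345 genes were called, against 0 with RLE size factors or without single-read sites, 5729 with library totals, 2002 with DESeq2, 937 without the filter and 4539 with each site counted once. In coding sequence 3 were called, against 134 with DESeq2, 191 without the filter, 28 with sites counted once, 5 without single-read sites and 154 without each gene's largest site. For the 3′UTR 0 were called, against 2383 with totals, 481 with DESeq2, 183 without the filter, 855 with sites counted once and 113 without the largest site. For introns 383 were called, against 5176, 1971, 1061 and 2065 in that order, 0 without single-read sites and 36 without the largest site. For the shift 0 were called, against 100 without the filter, 5877 with sites counted once, 3 without single-read sites and 91 without the largest site. Leaving out 1 library gave 0 to 874 (whole gene), 0 to 213 (coding), 0 to 30 (3′UTR) and 0 to 457 (introns).

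Members called were 0 in all 5 fits. With totals 4 (whole gene), 6 (3′UTR) and 6 (introns) were higher, against 5697 of 14531, 2380 of 5289 and 5165 of 12879 genes. With DESeq2 1 was higher in each of these, against 397 of 14407, 48 of 4350 and 529 of 12674 genes. With sites counted once 4 (whole gene) and 3 (introns) were lower, against 2561 of 11521 and 1412 of 7922 genes. In that setting 8 were higher for the shift, against 5873 of 10620 genes.

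Of 307 alternative values of members, 277 kept their direction and 30 did not. With library totals the whole-gene log2 value was 2.28 for HNRNPM, 2.25 for HNRNPL, 1.36 for HNRNPH1, 2.36 for HNRNPA2B1 and 1.87 for HNRNPK, and 1.34 for the HNRNPK 3′UTR. With sites counted once it was −0.90 for HNRNPU, −0.70 for HNRNPF, −0.71 for HNRNPA1 and −0.37 for HNRNPA3, −0.33 for the HNRNPU 3′UTR, −0.86, −0.15 and −0.54 for the introns of HNRNPU, HNRNPC and HNRNPA2B1, and 0.31 for the HNRNPA1 shift. HNRNPM had 0.12 without the filter. Without the largest site HNRNPF had −0.34 and the HNRNPA1 shift was 2.84. With exons of all transcripts the shifts of HNRNPU and HNRNPA1 were −2.51 and 2.07. Leaving out 1 library gave ranges across 0 for HNRNPU (−0.0082 to 1.04), HNRNPF (−0.53 to 1.02), HNRNPM (−0.24 to 0.31), HNRNPL (−1.16 to 0.20), HNRNPA3 (−0.26 to 1.54), HNRNPA2B1 (−0.998 to 0.45) and HNRNPK (−1.14 to 0.13), and −1.90 to 1.52 for the HNRNPA1 shift.

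Against Total, 8 members had every slice 2 times lower, against 0 with sites counted once, which put HNRNPH1 and HNRNPU above, and 4 with the 10 largest sites out of the scaling. For HuR the count above Total was 1 with full library totals as the base (32.3% of genes). On leaving out a replicate it was 2 without replicate 1 (26.0%) and 0 without replicate 2 (21.0%). The count below Total was 1 with the 10 largest sites out (21.4%). On leaving out a replicate it was 0 without replicate 1 (24.9%) and 5 without replicate 2 (30.8%). HuR reads at background sites made up 52.7%, against 25.5% with slice sites of 5 or more reads and 37.9% to 48.1% on leaving out a slice. For sites it was 28.3%, against 28.7% on either strand, 26.4% with 10 bases, 10.6% with 5 or more reads, 37.4% for clusters and 14.8% to 25.1% on leaving out a slice. By canonical transcripts, the HuR coding, 3′UTR and intron shares were 2.76%, 25.8% and 70.9%, and those of GFP 37.9%, 25.2% and 34.7%. Members with more RPM in both HuR replicates than in every slice were 8 (62.8% of genes). The count was 4 with the 10 largest sites out of the scaling (46.5%) and 1 with the trimmed mean of M-values (32.1%). On leaving out a slice it was 8 to 9 (63.1% to 67.7%).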
